A study of Mus musculus with 12 samples.

Results

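Mouse hepatocytes store triglyceride in lipid droplets, and 10 genes that coat these droplets or control the breakdown of their triglyceride were followed through treatment with benzbromarone (BBR), which is prescribed to lower uric acid, and with oleic acid (OA), a fatty acid used to fill hepatocytes with triglyceride. Members were found in the files by symbol. They are the perilipins Plin2, Plin3, Plin4 and Plin5, the CIDE genes Cidea, Cideb and Cidec, the triglyceride lipase gene Pnpla2, and the genes Hilpda and G0s2, which encode inhibitors of that lipase. All 10 were found among the 22471 features of the files, and all 10 passed the filter on low counts in every comparison.

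The study profiled poly(A)-enriched RNA of primary hepatocytes, isolated from male C57BL/6J mice according to its methods and labelled as liver, in 12 libraries. The 4 groups of 3 libraries were untreated cells (Con), cells given OA (ConOA), cells given BBR (BBR) and cells given both (BBROA). All cells had a wild-type background as far as the labels and methods state, and the series describes the OA supplement as a model of high-fat feeding, which in these cultures is a single fatty acid added to the medium. Whether each replicate was its own mouse or only its own well was not given in the sources used here, so that p-values measure only the spread between these libraries, which may be technical.

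A lipid droplet is a core of triglyceride and sterol ester under a single layer of phospholipid, and its proteins decide how easily lipases reach the core. Perilipins cover the surface, CIDE proteins sit where droplets touch and pass lipid from the smaller to the larger one, and adipose triglyceride lipase, the product of Pnpla2, takes the first fatty acid off the triglyceride. Many of these genes are known targets of the fatty acid-sensing PPAR receptors, and Hilpda is also known as a target of hypoxia-inducible factors.

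The libraries held 15485508 to 23668379 counts. A single count was therefore worth 0.0423 to 0.0646 CPM (counts scaled to a common library size), and a count of 0 allowed up to 0.127 to 0.194 CPM. Intervals of this kind cover counting error only. Replicates of a group differed by more than counting noise in every pair, with a chi-square of 2.73 to 7.42 per degree of freedom. Adjusted p-values come from edgeR's quasi-likelihood test with Benjamini-Hochberg adjustment over all genes tested, a gene was called at an adjusted p under 0.05, and the interaction is the log2 effect of BBR with OA minus that without OA.

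The cells were checked against their markers. The 8 hepatocyte markers checked summed to 33198 to 34606 CPM in Con and 34598 to 36389 in BBR, and to 39073 to 40265 in ConOA and 40492 to 42518 in BBROA. Against Con, 6 of 8 were called higher and none lower with OA alone, while 2 were called higher and 4 lower with BBR alone. Adipocytes also express Plin1, Cidea and Cidec, but the adipocyte markers Lep and Retn had no count in any library, Adipoq had at most 1 and the 7 adipocyte markers together stayed between 0.690 and 1.48 CPM. The 8 Kupffer cell markers summed to 127.6 to 172.3 CPM in BBR against 90.0 to 108.3 in Con, 93.0 to 110.7 in ConOA and 93.7 to 108.1 in BBROA. With BBR alone, 1 of these 8 markers was called higher and 1 lower against Con. The 6 cholangiocyte markers summed to 590.0 to 722.5 CPM in Con, 242.2 to 272.3 in ConOA, 391.0 to 421.6 in BBR and 198.7 to 240.2 in BBROA. The single markers did not follow this sum: of 4 tested, 3 were called higher and 1 lower with BBR against Con, and 1 higher and 1 lower with OA against Con. The 8 endothelial markers summed to 69.2 to 73.2 CPM in BBR against 61.2 to 64.4 in Con, with 3 called higher and none lower, and the 8 stellate cell markers to 21.6 to 28.8 CPM over all libraries. None of the Kupffer or cholangiocyte markers was at 0 in all libraries. The part of these markers in the members' differences was not tested, and in bulk RNA fewer cells of a type and less RNA per cell cannot be told apart.

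The members that rose with BBR both in medium without OA and in medium with it were Plin2, Cidec, Hilpda and Pnpla2. For this reason the bases before an annotated start of each are shown, up to 250, on the coding strand and in genome build GRCm38.p6 as given by RefSeq. Cidec and Hilpda each had a second annotated start, whose bases were searched in the same way but are not shown. Capitals mark a match to the DR1 motif, in which AGGTCA stands 2 times in a row with 1 base of any kind between, read with up to 2 mismatches among its 12 fixed letters. PPAR and its partner RXR are known to bind DR1 sites.
Plin2, chr4:86670061-86670309, minus strand: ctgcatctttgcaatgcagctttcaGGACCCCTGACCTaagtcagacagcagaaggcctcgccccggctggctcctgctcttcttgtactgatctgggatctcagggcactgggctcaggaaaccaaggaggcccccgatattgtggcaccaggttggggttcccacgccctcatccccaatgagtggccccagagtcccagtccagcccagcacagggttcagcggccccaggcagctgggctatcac
Cidec, chr6:113435761-113436010, minus strand: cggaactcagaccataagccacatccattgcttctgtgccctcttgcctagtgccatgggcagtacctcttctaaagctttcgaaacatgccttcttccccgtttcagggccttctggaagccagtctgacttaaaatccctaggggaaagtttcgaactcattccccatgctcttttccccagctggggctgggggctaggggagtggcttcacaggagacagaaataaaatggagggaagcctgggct
Hilpda, chr6:29272238-29272487, plus strand: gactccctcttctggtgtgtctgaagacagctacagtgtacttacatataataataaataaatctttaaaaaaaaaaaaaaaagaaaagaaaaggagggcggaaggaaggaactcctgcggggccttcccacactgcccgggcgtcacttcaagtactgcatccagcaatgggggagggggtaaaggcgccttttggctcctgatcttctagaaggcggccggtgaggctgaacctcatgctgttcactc
Pnpla2, chr7:141454938-141455187, plus strand: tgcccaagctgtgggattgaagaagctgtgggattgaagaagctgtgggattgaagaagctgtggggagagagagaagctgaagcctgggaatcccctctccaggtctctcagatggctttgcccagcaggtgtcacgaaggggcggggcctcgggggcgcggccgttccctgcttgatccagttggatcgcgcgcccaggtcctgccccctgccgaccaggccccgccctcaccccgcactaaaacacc

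RefSeq windows were matched for 9 of the 10 members, and the 12 windows of these genes were searched on both strands. The capitals in the Plin2 sequence lie 225 to 213 bases before the start, on the minus strand relative to the gene, and they include the exact motif AGGTCA at 218 to 213. A match of this looseness was present in 3.24% of 32851 windows of the same length, and AGGTCA alone in 14.0%. Plin5 also had an AGGTCA, at 170 to 165 bases before its start. Of the forms of the hypoxia-response core, only ACGTG was searched. It was found only before a second annotated start of Hilpda, at 43 to 39 bases, against 16.6% of all windows. That window overlaps an annotated exon by 121 bases. The match lies inside the annotated Hilpda gene and not among the bases shown. The E-box CACGTG, present in 6.02% of all windows, matched in no member. TATAAA, in 12.4% of all windows, matched only in Cideb. These matches describe letters and show no binding.

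Compared per length of transcript, the members covered a wide range of levels. Plin2, the general droplet coat protein of hepatocytes, had a mean of 745.4 FPKM (the deposited unit, corrected for transcript length and for depth) over the 12 libraries, and 124 features of the files were higher. Plin3 with 76.3 FPKM, Hilpda with 74.3 and Cideb with 62.9 followed, then Pnpla2 with 25.6 FPKM. Cidea with 13.8 FPKM, G0s2 with 11.6 and Cidec with 10.03 were lower still, and Plin5 with 2.96 and Plin4 with 1.62 FPKM were the lowest. Plin1, the perilipin of adipocytes, had 0 to 2 counts in every library and was not tested.

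**Figure D1:**
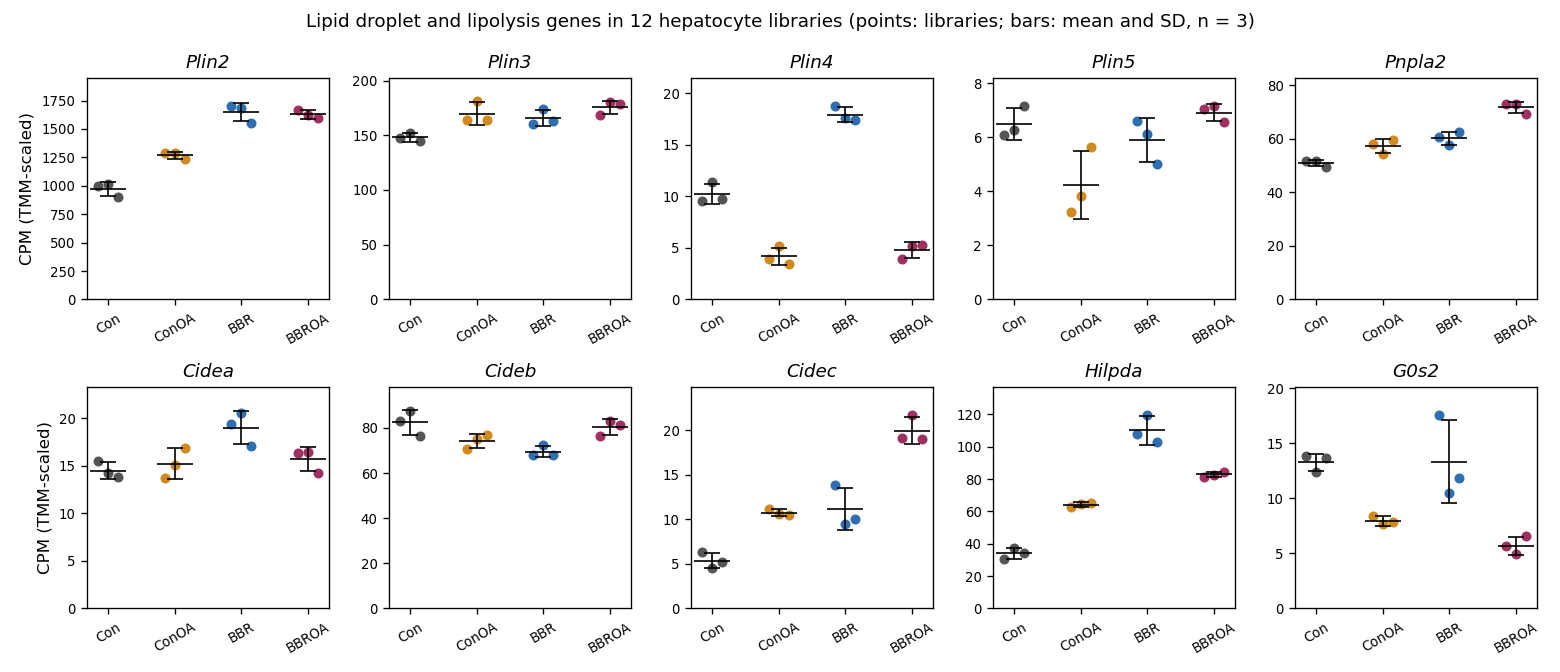
TMM-scaled CPM (vertical axes, each from 0) of the 10 genes in the 12 libraries, with points for libraries and bars for the mean and SD of 3 libraries in each of Con, ConOA, BBR and BBROA. Hilpda steps from 34.0 in Con to 110.1 in BBR, Plin4 is high without OA and low with it, and Cidec is highest when both agents are present, at 19.97.

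Among the coat proteins, Plin2 was raised by either agent, and no further rise with OA was called on top of BBR. TMM-scaled CPM of Plin2 (ENSMUSG00000028494, chromosome 4, 86648386 to 86670060, minus strand, GRCm38) in replicates 1, 2 and 3 were 998.4, 1015 and 903.6 in Con, 1285, 1288 and 1234 in ConOA, 1702, 1684 and 1557 in BBR, and 1669, 1620 and 1593 in BBROA. The Con libraries lay below all ConOA libraries, and these below all libraries with BBR, while BBR and BBROA overlapped. Against Con the log2 fold change was 0.77 (SE 0.057, adjusted p = 9.67e-08) with BBR and 0.39 (SE 0.055, adjusted p = 5.30e-05) with OA. In OA-loaded cells the log2 rise of Plin2 with BBR was 0.36 (SE 0.045, adjusted p = 4.04e-04), and the rise was smaller than in cells without OA (interaction -0.40, SE 0.071, adjusted p = 9.61e-04). Between BBROA and BBR the log2 difference was -0.019 (SE 0.046, adjusted p = 0.784).

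Plin3, a perilipin that moves from the cytosol onto young droplets, moved within narrow bounds. Its CPM was 148.0 ± 3.92 (SD, n = 3, as for all group means below) in Con, 169.8 ± 10.1 in ConOA, 165.8 ± 7.20 in BBR and 175.6 ± 6.13 in BBROA. The 3 treated groups overlapped each other and all lay above Con. The log2 fold change against Con was 0.21 with OA (SE 0.052, adjusted p = 0.00530), 0.17 with BBR (SE 0.047, adjusted p = 0.0120) and 0.24 with both (SE 0.044, adjusted p = 2.65e-04). Without BBR replicate 2, the rise with BBR was 0.14 and missed the threshold (adjusted p = 0.0694). Within OA-loaded cells the difference between BBROA and ConOA was 0.045 on the log2 scale (adjusted p = 0.706).

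Plin4, a long perilipin rich in repeats that coats small droplets, separated the groups by OA. Its CPM (chromosome 17, 56100591 to 56109803, minus strand) in replicates 1, 2 and 3 were 9.59, 11.4 and 9.77 in Con, 18.7, 17.6 and 17.4 in BBR, 3.91, 5.14 and 3.47 in ConOA, and 3.90, 5.18 and 5.24 in BBROA. Every BBR library lay above every Con library, every library with OA lay below both, and the OA groups overlapped each other. OA lowered Plin4 by 2.44 fold without BBR (log2 fold change -1.29, SE 0.14, adjusted p = 6.14e-06) and by 3.78 fold with it (-1.92, SE 0.11, adjusted p = 1.49e-08). BBR raised it 1.76 fold in cells without OA (log2 change 0.82, SE 0.089, adjusted p = 4.18e-06), while the log2 difference in OA-loaded cells was 0.19 (SE 0.18, adjusted p = 0.634). The interaction passed the test (-0.62, SE 0.19, adjusted p = 0.0416). It was lost in 7 of the 12 fits that left out 1 library, those without Con 1 or 3, ConOA 2, any BBR library or BBROA 1 (-0.64 to -0.47, adjusted p 0.0583 to 0.160). Plin4 shares 17 exonic bases with Hdgfl2.

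Plin5, the perilipin that ties droplets to mitochondria and is known from oxidative tissues, was low. Its CPM in replicates 1, 2 and 3 were 6.07, 6.25 and 7.16 in Con, 3.23, 3.84 and 5.62 in ConOA, 6.58, 6.12 and 5.005 in BBR, and 7.03, 7.13 and 6.55 in BBROA. ConOA lay below Con and below BBROA but overlapped BBR, owing to its replicate 3. OA lowered Plin5 (log2 fold change -0.61, SE 0.18, adjusted p = 0.0122), and BBR raised it in OA-loaded cells (0.70, SE 0.17, adjusted p = 0.0335) but was not called in cells without OA (-0.13, SE 0.14, adjusted p = 0.518). The interaction of 0.84 (SE 0.23, adjusted p = 0.0211) was lost without Con 3, ConOA 1, ConOA 2, BBR 3 or BBROA 2 (0.68 to 0.79, adjusted p 0.0510 to 0.0734). The rise in OA-loaded cells was lost without each of the 6 libraries but ConOA 3 (0.54 to 0.73, adjusted p 0.0851 to 0.136), and the fall with OA without ConOA 1 or 2 (-0.53 to -0.45, adjusted p 0.0562 to 0.0573).

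Within the summed FPKM of the 4 perilipins, Plin2 took 87.8% ± 0.538 in Con, 89.4% ± 0.496 in ConOA, 91.5% ± 0.385 in BBR and 91.1% ± 0.419 in BBROA. Plin3 took most of the rest, between 7.88% in BBR and 11.4% in Con, and Plin4 and Plin5 together took under 1 percent. The sum itself was 609.1 ± 39.2 FPKM in Con, 759.6 ± 22.5 in ConOA, 979.2 ± 45.2 in BBR and 957.0 ± 20.2 in BBROA.

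The CIDE genes went separate ways. Cidec, whose protein drives the growth of large droplets, had CPM in replicates 1, 2 and 3 of 6.32, 4.58 and 5.22 in Con, 11.2, 10.6 and 10.5 in ConOA, 13.9, 9.53 and 10.01 in BBR, and 19.2, 21.7 and 19.0 in BBROA (ENSMUSG00000030278, chromosome 6, 113424634 to 113435760, minus strand). The single-agent groups overlapped, Con lay below both and BBROA above both. The log2 fold change was 1.08 with BBR (SE 0.15, adjusted p = 6.74e-05) and 1.01 with OA (SE 0.12, adjusted p = 1.51e-05) against Con. On top of OA, BBR gave 0.89 (SE 0.087, adjusted p = 3.27e-05), and OA on top of BBR gave 0.82 (SE 0.12, adjusted p = 8.74e-05). The interaction was not called (-0.18, SE 0.19, adjusted p = 0.599), and with both agents Cidec was 3.72 fold higher than in Con (log2 fold change 1.89, SE 0.11, adjusted p = 6.22e-10).

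Cidea, the CIDE gene of brown fat that liver is known to express when it is fatty, was highest with BBR alone. Its CPM was 14.5 ± 0.899 in Con, 15.2 ± 1.61 in ConOA, 19.0 ± 1.75 in BBR and 15.7 ± 1.23 in BBROA. The BBR libraries lay above all others and the other 3 groups overlapped. BBR raised Cidea without OA (log2 change 0.40, SE 0.086, adjusted p = 0.00247), and the value in OA-loaded cells was 0.042 (SE 0.095, adjusted p = 0.858). The interaction missed the threshold (-0.35, SE 0.13, adjusted p = 0.0947) and passed it without ConOA 1 (-0.42, adjusted p = 0.0489). BBROA was lower than BBR (-0.27, SE 0.089, adjusted p = 0.0257), a call lost without BBR 1, BBR 2 or BBROA 3 (-0.25 to -0.21, adjusted p 0.0703 to 0.107).

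Cideb, the CIDE gene most abundant in hepatocytes and linked to the lipidation of secreted lipoproteins, fell with BBR alone. Its CPM was 82.4 ± 5.54 in Con, 74.2 ± 3.19 in ConOA, 69.4 ± 2.47 in BBR and 80.3 ± 3.45 in BBROA. Ordered by mean as Con, BBROA, ConOA and BBR, neighbouring groups overlapped, while all BBR libraries lay below those of Con and of BBROA. BBR lowered Cideb without OA (log2 change -0.24, SE 0.055, adjusted p = 0.00357) and gave 0.11 with OA (SE 0.053, adjusted p = 0.284), with an interaction of 0.36 (SE 0.078, adjusted p = 0.00488). OA alone gave -0.14 (SE 0.058, adjusted p = 0.0629), which passed the threshold without Con 3 or without ConOA 3 (-0.19 to -0.17, adjusted p 0.0226 to 0.0359). Of the 1488 exonic bases of Cideb, 1136 overlap Nop9 on the opposite strand, and the sources do not state whether counting used the strand, so that reads of the pair cannot be told apart. Nop9 itself had an interaction of 0.028 (adjusted p = 0.860) and a log2 fold change of -0.072 with BBR without OA (adjusted p = 0.377). Like those of Cideb, its BBR libraries all lay below those of Con. OA on top of BBR raised Nop9 by 0.20 in log2 terms (adjusted p = 0.00469) and Cideb by 0.21 (adjusted p = 0.00362). OA alone raised Nop9 (0.18, adjusted p = 0.0183). The part of Nop9 reads in the Cideb values was not tested. Cideb was the only member with fractional counts, which it had in all 12 libraries.

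Within the summed FPKM of the CIDE genes, the share of Cidec was 5.19% in Con, 11.3% in ConOA, 11.3% in BBR and 17.7% in BBROA. The share of Cideb was 80.1% ± 1.66 in Con, 73.1% ± 0.746 in ConOA, 69.0% ± 2.52 in BBR and 68.3% in BBROA. The sum was 85.6 ± 5.47 FPKM in Con, 82.7 ± 3.43 in ConOA, 83.1 ± 3.81 in BBR and 95.8 ± 3.50 in BBROA. Every BBROA library lay above all libraries of the other groups.

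**Figure D2:**
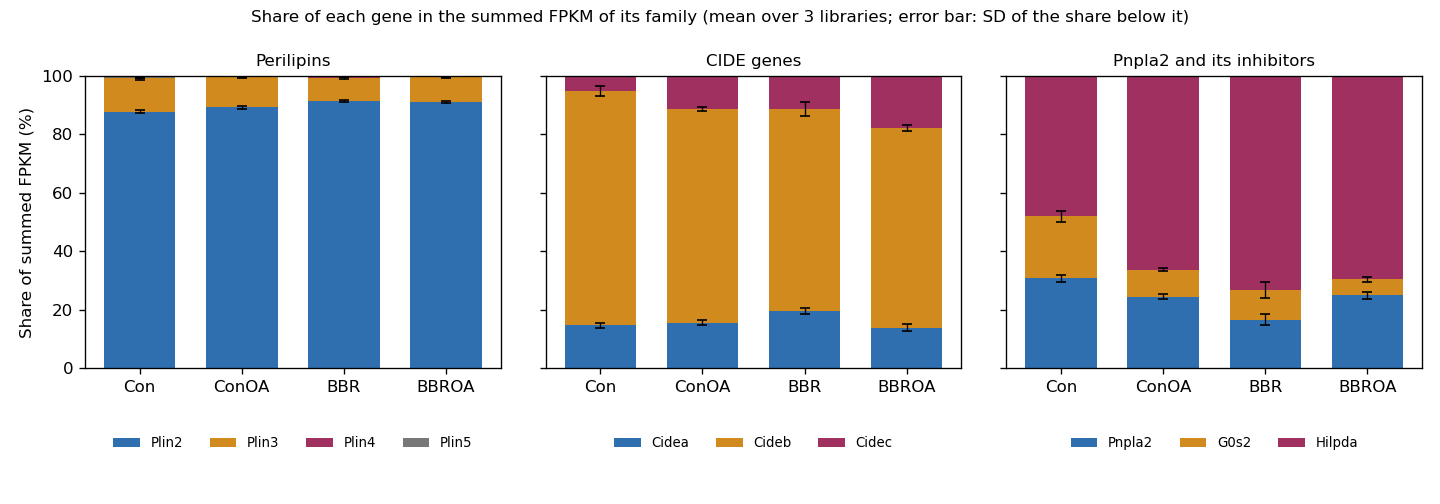
Share (%, vertical axis from 0 to 100) of each gene in the summed FPKM of the perilipins, of the CIDE genes, and of Pnpla2 with its inhibitors, as the mean of 3 libraries per group, with the SD of the share below each error bar. Plin2 fills 87.8% to 91.5% of the perilipin signal, the Cidec share goes from 5.19% in Con to 17.7% in BBROA, and the Hilpda share from 48.0% in Con to 73.3% in BBR.

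Pnpla2, which encodes the lipase that starts triglyceride breakdown, rose modestly with each agent and most with both. Its CPM (chromosome 7, 141455198 to 141460743, plus strand) in replicates 1, 2 and 3 were 51.8, 51.6 and 49.6 in Con, 58.1, 54.2 and 59.5 in ConOA, 60.6, 57.5 and 62.4 in BBR, and 72.9, 72.9 and 69.3 in BBROA. Con lay below every treated library, BBROA above all others, and the single-agent groups overlapped. BBR raised Pnpla2 without OA (log2 change 0.25, SE 0.052, adjusted p = 0.00199) and with OA (0.32, SE 0.054, adjusted p = 0.00362), and the interaction was not called (0.085, SE 0.072, adjusted p = 0.506). BBROA was 1.40 fold higher than Con (log2 fold change 0.49, SE 0.048, adjusted p = 3.68e-07). The smaller rise with OA alone (0.17, SE 0.056, adjusted p = 0.0209) was lost without Con 2, Con 3, ConOA 1 or ConOA 3 (0.15 to 0.18, adjusted p 0.0549 to 0.0772).

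Hilpda, the small hypoxia-inducible droplet protein that inhibits this lipase, showed the largest log2 fold change of the 10 members in BBR against Con. Its CPM (ENSMUSG00000043421, chromosome 6, 29272488 to 29275446, plus strand) in replicates 1, 2 and 3 were 30.4, 37.4 and 34.2 in Con, 62.7, 64.7 and 65.3 in ConOA, 107.8, 119.8 and 102.6 in BBR, and 81.5, 82.8 and 84.4 in BBROA. The 4 groups followed each other without overlap, BBR above BBROA, ConOA and Con. BBR raised Hilpda 3.25 fold without OA (log2 change 1.70, SE 0.071, adjusted p = 1.86e-10) and 1.29 fold with OA (0.36, SE 0.048, adjusted p = 5.66e-04). The interaction was -1.33 (SE 0.092, adjusted p = 1.11e-07). OA raised Hilpda in the absence of the drug (0.93, SE 0.068, adjusted p = 1.18e-07) and lowered it in its presence (-0.41, SE 0.054, adjusted p = 3.80e-05). The sum of the Kupffer cell markers was likewise highest in BBR, at 127.6 to 172.3 CPM against at most 110.7 in the other groups. Of these 8 markers, however, 1 was called higher and 1 lower with BBR alone, and their part in the Hilpda values was not tested.

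G0s2, whose product binds the same lipase and blocks it, went the other way with OA. Its CPM (chromosome 1, 193272161 to 193273217, minus strand) in replicates 1, 2 and 3 were 13.9, 12.4 and 13.6 in Con, 8.43, 7.63 and 7.81 in ConOA, 17.6, 10.5 and 11.9 in BBR, and 5.67, 4.91 and 6.55 in BBROA. Both OA groups lay below both groups without OA, BBROA below ConOA, and BBR spread to either side of Con, with its first library highest. OA lowered G0s2 by 1.66 fold in cells without BBR (log2 fold change -0.73, SE 0.096, adjusted p = 2.96e-05) and by 2.38 fold in cells with it (-1.25, SE 0.18, adjusted p = 7.40e-05). BBR without OA gave 0.034 (SE 0.14, adjusted p = 0.884). BBR in OA-loaded cells gave -0.49 (SE 0.13, adjusted p = 0.0469), a call that did not pass in DESeq2 or in any of the 6 fits that left out 1 library (-0.59 to -0.39, adjusted p 0.0578 to 0.188).

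Set against the lipase per length of transcript, the inhibitors diverged. Hilpda had 1.56 ± 0.160 FPKM for each FPKM of Pnpla2 in Con, 2.70 ± 0.157 in ConOA, 4.43 ± 0.679 in BBR and 2.78 ± 0.170 in BBROA. For G0s2 the ratio was 0.689 ± 0.0404 in Con, 0.375 ± 0.0184 in ConOA, 0.599 ± 0.167 in BBR and 0.216 ± 0.0356 in BBROA. The ratio of Hilpda thus was highest with BBR alone and that of G0s2 lowest with both agents. For the coat protein Plin2 the ratio was 23.8 ± 1.44 in Con, 28.1 ± 1.89 in ConOA, 35.1 ± 3.91 in BBR and 28.9 ± 0.798 in BBROA.

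The members were chosen with earlier results of these data known. Their counts and medians, here and for the interaction below, are therefore a description and no test of the list. Counted over the members, BBR without OA raised 7 and lowered 1 of 10, Cideb, with Plin5 and G0s2 not called. Of the 12555 genes tested, 27.7% were called, 13.2% higher and 14.5% lower. The members' median log2 fold change was 0.32, against -0.00085 over all genes tested. In OA-loaded cells BBR raised 5 (Plin2, Plin5, Cidec, Hilpda and Pnpla2) and lowered G0s2, where 4.59% of 12278 genes were called, 1.95% higher and 2.63% lower, and the members' median was 0.25 against -0.00031. These 2 comparisons share no library. OA alone raised 5 and lowered 3, where 42.8% of 12418 genes were called, 21.3% higher and 21.5% lower. OA on top of BBR raised 3 and lowered 4, where 38.9% of 12416 genes were called, 20.1% higher and 18.8% lower. The members' medians for OA were 0.13 without BBR and 0.031 with it, against -0.0060 and -0.0061 over all genes. With both agents against Con, 5 members rose and 2 fell, where 43.8% of 12471 genes were called, 21.6% higher and 22.2% lower, with a median of 0.18 against -0.0074. The comparisons of BBR, ConOA and BBROA with Con share the Con libraries. In each comparison of 2 groups, the members whose CPM values did not overlap were the called ones and no others. Over all genes tested, called or not, values did not overlap for 41.5% with BBR and 23.9% with BBR in OA-loaded cells. This share was 52.2% with OA, 49.6% with OA on top of BBR and 52.9% with both against Con. The share among called genes alone was not computed.

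**Figure D3:**
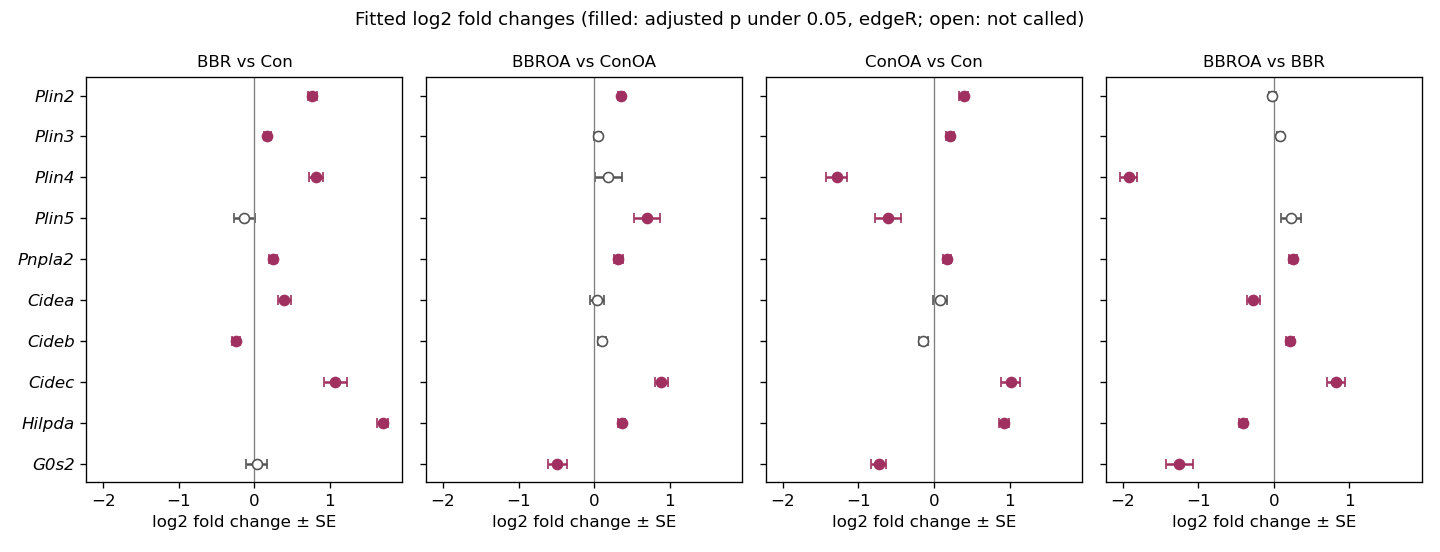
Fitted log2 fold changes with SE (horizontal axes) of the 10 genes in BBR vs Con, BBROA vs ConOA, ConOA vs Con and BBROA vs BBR, 3 libraries per group, with filled points for an adjusted p under 0.05 in edgeR. Plin4 moves most with OA (-1.29 and -1.92), Hilpda most with BBR in cells without OA (1.70), and Cidec is to the right of 0 in all 4 panels.

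The interaction of BBR and OA was called for 5 of the 10 members, where 12.2% of 12742 genes were called, 6.87% positive and 5.31% negative. It was positive for Plin5 and Cideb and negative for Plin2, Plin4 and Hilpda, and the members' median was -0.26, against 0.012 over all genes. Plin3, Cidea, Cidec, G0s2 and Pnpla2 were not called. Plin4, Cidea and Hilpda were highest in BBR, as were the summed Kupffer cell markers, of which 1 was called higher and 1 lower of 8 tested with BBR alone. Plin4 and G0s2 were lower in both OA groups, as were the summed cholangiocyte markers, of which 1 was called higher and 1 lower of 4 tested with OA alone. The summed endothelial markers were also highest in BBR, and the summed hepatocyte markers were higher in both OA groups. The part of these markers in the results was not tested. For Cidec the difference of 0.18 on the log2 scale came with an SE of 0.19 and for Pnpla2 that of 0.085 with an SE of 0.072, so that a like size of effect in both media is not shown by these tests.

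**Figure D4:**
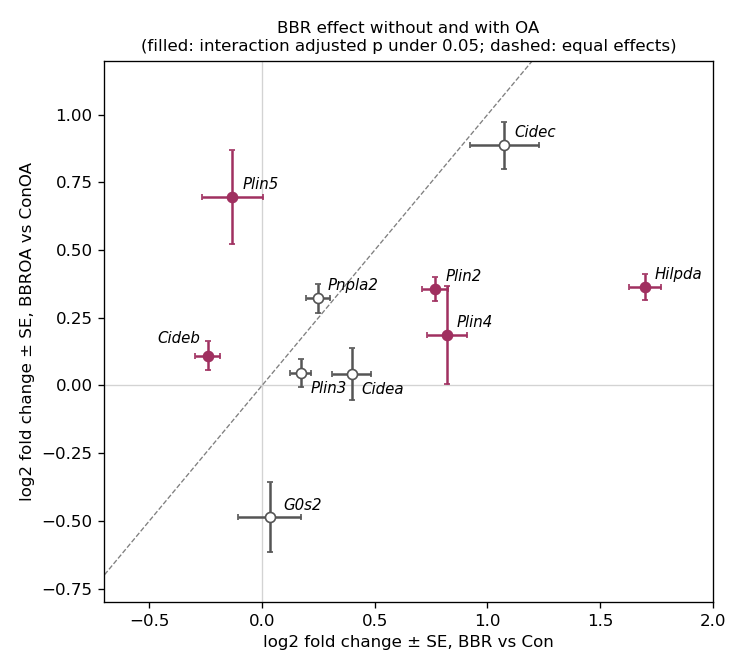
Log2 fold change with SE of BBR against Con (horizontal axis) and of BBROA against ConOA (vertical axis) for the 10 genes, 3 libraries per group, with filled points where the interaction had an adjusted p under 0.05 and a dashed line for equal effects. Hilpda (1.70 against 0.36) lies farthest below the line, Plin5 (-0.13 against 0.70) lies above it, and Cidec and Pnpla2 lie close to it.

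Over the 12 libraries, the genes most like each member in log2(CPM + 0.5) were listed among 9618 genes by Pearson r, as a description over libraries that share their 4 treatments. Plin2 ran closest with Impdh1 (r = 0.956), Hilpda (0.955) and Alkbh5 (0.947). Cidec ran closest with Acot4 (0.968), a peroxisomal thioesterase, Angptl4 (0.968), a secreted inhibitor of lipoprotein lipase, and Acadl (0.964), a mitochondrial acyl-CoA dehydrogenase. Pnpla2 ran closest with the thioesterase Acot2 (0.963), with Cpt1a (0.963), which lets fatty acids into mitochondria, and with Slc25a4 (0.954), and its r with Cidec was 0.936. Hilpda had Pole4 (0.975), the glycolytic enzyme gene Pfkp (0.974) and Tmcc3 (0.972) as nearest genes. Plin4 had Glg1 (0.987), Cic (0.983) and Smim14 (0.981). G0s2 had Pde3b (0.966), the insulin-responsive phosphodiesterase, Ociad2 (0.949) and Nat8f2 (0.946), and its r with Plin4 was 0.787. Plin3 ran with Uba6 (0.962), Hip1r (0.949) and Pacs2 (0.948). For Plin5 the nearest were Copz1 (0.899), Smdt1 (0.883) and Ipp (0.877), for Cidea Nptn (0.902), Uxs1 (0.896) and Psmd4 (0.894), and for Cideb Echdc3 (0.885), Pus10 (0.883) and Egln2 (0.877).

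Of 47 other genes in the pathway, 14 for droplet assembly, 16 for further surface proteins and 17 for lipolysis and lipophagy, 46 were tested in BBR against Con. There 10 were called higher and 15 lower, with a median log2 fold change of 0.031, where 27.7% of all genes were called. Of the surface list, 1 of 15 tested genes was called higher and 7 lower. In OA-loaded cells BBR raised 4 of 45, Lpin2, Hsd17b11, Mgll and Pnpla8, and lowered none by edgeR, where 4.59% of all genes were called, with 6 higher and 2 lower at an unadjusted p under 0.05 and 4 higher and none lower by DESeq2. The rise of Pnpla8, a membrane phospholipase, was 0.23 on the log2 scale (SE 0.049, adjusted p = 0.0170). It was lost without ConOA 1, BBROA 2 or BBROA 3 (adjusted p 0.0556 to 0.103) and with limma on log2(FPKM + 1) (0.14, adjusted p = 0.316). OA alone raised 13 and lowered 13 of 46, where 42.8% of all genes were called. OA on top of BBR raised 10 and lowered 11, with 38.9% called, and both agents against Con raised 13 and lowered 14, with 43.8% called.

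Further down the lipolytic cascade, Abhd5, which encodes the co-activator of Pnpla2, had 50.8 ± 1.06 CPM in Con and 54.1 ± 1.44 in ConOA. It had 52.6 ± 1.82 in BBR and 53.7 ± 1.16 in BBROA and was called in no comparison by edgeR (adjusted p 0.155 to 0.920). With limma on log2(FPKM + 1) it was called higher in BBROA against Con (0.16, adjusted p = 0.0362). Lipe, the hormone-sensitive lipase that cleaves diglyceride, had 9.23 ± 1.38 CPM in Con, 7.49 ± 1.41 in ConOA, 12.5 ± 0.552 in BBR and 8.39 ± 0.558 in BBROA. BBR raised Lipe without OA (log2 change 0.44, SE 0.11, adjusted p = 0.00584), and OA lowered it in the presence of BBR (-0.57, SE 0.097, adjusted p = 3.11e-04). Mgll, the monoglyceride lipase of the last step, had 11.6 ± 1.66 CPM in Con, 5.56 ± 1.77 in ConOA, 6.57 ± 1.76 in BBR and 11.8 ± 1.32 in BBROA. Either agent alone lowered Mgll, by 0.79 on the log2 scale for BBR (SE 0.15, adjusted p = 0.00115) and by 1.05 for OA (SE 0.18, adjusted p = 3.03e-04), and with both its level was close to that of Con. Its interaction was 1.88 (SE 0.27, adjusted p = 1.61e-04), larger in size than that of any of the 10 members. Lipa, the lysosomal acid lipase, and Aqp9, the glycerol channel of hepatocytes, were the other 2 genes of the lipolysis list with a called interaction, 0.42 (SE 0.082, adjusted p = 0.00243) and 0.26 (SE 0.080, adjusted p = 0.0374). The call of Aqp9 was lost with DESeq2, RLE scaling and limma (adjusted p 0.0502 to 0.0687) and in 10 of the 12 fits with 1 library left out, all but those without ConOA 1 or BBR 3 (0.21 to 0.28, adjusted p 0.0507 to 0.131).

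In droplet assembly, BBR without OA raised Acsl3, which activates fatty acids on nascent droplets, from 30.7 to 55.4 CPM (log2 fold change 0.86, SE 0.067, adjusted p = 1.48e-07). It also raised Gpat3, an acyltransferase of triglyceride synthesis, by 0.79 (SE 0.076, adjusted p = 1.53e-06) and Lpin2, a phosphatidate phosphatase, by 0.67 (SE 0.057, adjusted p = 4.02e-07). Bscl2, which encodes seipin of the droplet neck, fell in log2 terms by 0.71 (SE 0.11, adjusted p = 1.26e-04). In OA-loaded cells Lpin2 rose by 0.33 (SE 0.056, adjusted p = 0.00395). OA on top of BBR lowered Lpin1, another phosphatidate phosphatase, from 74.1 to 47.6 CPM (-0.64, SE 0.086, adjusted p = 4.38e-05).

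Among surface genes, Hsd17b13, a hepatocyte droplet enzyme, rose with OA from 70.5 to 137.8 CPM (log2 fold change 0.97, SE 0.083, adjusted p = 4.82e-07). With BBR present, OA took it from 59.2 to 141.8 CPM (1.26, SE 0.088, adjusted p = 8.58e-08). Tm6sf2, which takes part in loading lipid onto secreted lipoproteins, fell with BBR without OA from 5.81 to 3.11 CPM (-0.87, SE 0.21, adjusted p = 0.00472). It rose with OA in the absence of BBR (0.55, SE 0.15, adjusted p = 0.00780) and in its presence (1.38, SE 0.22, adjusted p = 2.06e-04). Hsd17b11, a relative of Hsd17b13, rose with BBR in OA-loaded cells (0.37, SE 0.054, adjusted p = 0.00126). Mettl7a1 fell with OA (-0.67, SE 0.066, adjusted p = 1.98e-06) and with both agents (-0.62, SE 0.060, adjusted p = 3.22e-07), as did Vps13c, a lipid transfer protein, with both (-0.58, SE 0.054, adjusted p = 1.95e-07). The carboxylesterase genes of the lipolysis list are related copies and may share reads. Of these, Ces1f fell with OA (-0.73, SE 0.20, adjusted p = 0.00797) and with both agents (-0.82, SE 0.18, adjusted p = 0.00118), and Ces1d fell with OA on top of BBR (-0.62, SE 0.089, adjusted p = 7.88e-05).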

How the data were processed

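The libraries held poly(A)-enriched RNA primed at random for cDNA synthesis and read on an Illumina HiSeq instrument. For each library the authors deposited estimated counts, some of them not whole, and FPKM values of 22471 features. The submitters' processing notes name the build mm10, and the aligner, the counter and the use of strand are not given in the sources used here. Estimated counts were rounded to whole numbers, since 2862 features had a fractional count. The deposited FPKM values, without TMM scaling, served to compare levels between genes and in an alternative test, on log2(FPKM + 1). They also gave the family sums, family shares and ratios to Pnpla2, which were set side by side between groups.

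Groups came from the sample titles. Genes were kept by filterByExpr (minimum count 10), scaled by TMM and tested in edgeR 4.0.16 (R 4.3.3) with its quasi-likelihood F test, two-sided. Pairwise comparisons used the 6 libraries of the 2 groups, and the interaction, the difference between the BBR effect with and without OA, used all 12. A gene was called at a Benjamini-Hochberg adjusted p-value under 0.05 over all genes tested. SEs were derived from the F statistic. The fits were tested on simulated counts. Alternatives were RLE and upper quartile scaling, DESeq2 1.42.0, other filters, all 12 libraries in 1 fit, a replicate block, limma 3.58.1 on FPKM, and leaving out each library.

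The members, gene lists and tests were chosen with earlier results of these data known. Besides the members, Plin1, Abhd5, Lipe and Mgll were always named, with the 3 largest called rises and falls among list genes of at least 5 CPM in each pairwise comparison, and the 3 genes most like each member. Pnpla8, Lipa and Aqp9 were named after their values were seen. Gene positions come from GENCODE mouse release 21 (GRCm 38), and upstream sequences from RefSeq.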

Additional observations from a re-analysis of the deposited data

Results flagged for a closer look

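The effect of BBR differed between cells without and with OA for 5 of the 10 members, tested as the interaction term over all 12 libraries in edgeR. The interaction, on the log2 scale, was -1.33 for Hilpda (adjusted p = 1.11e-07), -0.40 for Plin2 (adjusted p = 9.61e-04), 0.36 for Cideb (adjusted p = 0.00488), 0.84 for Plin5 (adjusted p = 0.0211) and -0.62 for Plin4 (adjusted p = 0.0416). The 3 negative terms belonged to genes whose BBR effect was smaller with OA than without it. The terms of Hilpda, Plin2 and Cideb passed the threshold in all 19 alternatives run, and those of Plin5 and Plin4 failed in 5 and 7 of them, each time with 1 library left out.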

How the results depend on the processing

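Over the 10 members, 890 alternative values were computed, of which 842 kept their side of the threshold, 41 lost a call and 7 gained one. In 7 of the 842 the sign differed, each time for a value that was not called. The count of all genes called in BBROA against ConOA was 563. It was 174 with limma on FPKM and 216 to 632 with 1 library left out, namely 216 without BBROA 3, 230 without BBROA 2, 249 without ConOA 2 and 373 without BBROA 1. The cause was not tested, beyond the fewer samples of the latter fits. For the interaction the count was 1551, and 1027 to 1679 with 1 library left out, lowest without ConOA 2 (1027) and BBR 2 (1028). The members called were 5, and 3 to 5 with 1 library left out, with 3 without Con 3, ConOA 2 or BBR 3.

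Some calls of members failed in other settings. The fall of G0s2 in BBROA against ConOA failed with DESeq2, with all 12 libraries in 1 fit and with limma (adjusted p 0.0703 to 0.113), that of Cidea in BBROA against BBR with DESeq2 (adjusted p = 0.0552), and the rise of Plin5 in BBROA against ConOA with limma (adjusted p = 0.0786). The rise of Pnpla2 failed with limma in BBR against Con (adjusted p = 0.0515), and with limma and upper quartile scaling in ConOA against Con (adjusted p 0.0788 to 0.150). Cideb in ConOA against Con was called lower with upper quartile scaling, all 12 libraries, limma and the replicate block (adjusted p 0.00579 to 0.0422).

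Same-numbered replicates correlated at 0.0107 to 0.183 in their deviations from the group means, and different-numbered ones at -0.149 to 0.0684. The same-numbered values were not all above 0.1, and the main tests did not use the numbers to pair the samples. Whether replicates of a number share a source was not tested. With the replicate number as a block, more genes were called in every comparison, 1333 against 563 in BBROA against ConOA. The members called with the block were 8 in BBR against Con, 6 in BBROA against ConOA and 9 in ConOA against Con. They were 7 in BBROA against BBR, 7 in BBROA against Con and 5 for the interaction. The block changed 1 member call, that of Cideb. The lowest counts of a member in a library were 57 for Plin5 and 68 for Plin4. In CPM, which is not corrected for length, 25 of 40 family shares moved by more than the SD between replicates, and Hilpda took 34.5% in Con, 49.6% in ConOA, 59.9% in BBR and 51.7% in BBROA of its summed signal with Pnpla2 and G0s2.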
